A study of Mus musculus with 18 samples.

Results

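The E2F factors and the pocket proteins that hold them were followed here in mouse bone marrow-derived macrophages (BMDMs). The members were chosen by gene symbol, E2f1 to E2f8 with Rb1 and Rbl1, and make up 10 of the 22852 genes in the count files. All 10 were measured and all 10 passed the filter on low counts. RNA-Seq was made from 18 samples, 3 in each of 6 groups, of BMDMs grown for 7 days from female C57BL/6 mice in medium conditioned by L929 cells. Unstimulated BMDMs received no LPS. LPS-stimulated BMDMs received LPS, the cell wall lipopolysaccharide of Salmonella, at 10 ng/ml for 3 h. LPS-primed BMDMs were kept for 24 h with LPS at 100 ng/ml. LPS-tolerant BMDMs had the same priming, after which their medium was replaced by a fresh one with LPS at 10 ng/ml for 3 h. The remaining groups, LPS-primed with carboplatin and LPS-tolerant with carboplatin, had 25 µM carboplatin, a platinum drug that crosslinks DNA, added 1 h before priming. The single dose and the priming dose differ in both concentration and duration, so that the effects of time and dose cannot be told apart.

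E2F factors bind promoters of genes for DNA replication and cell division, mostly as heterodimers with a DP protein. E2f1, E2f2 and E2f3 are classed as activators, E2f4, E2f5 and E2f6 as repressors, and E2f7 and E2f8 as atypical members that bind DNA without a DP partner and repress. The pocket proteins, pRB from Rb1 and p107 from Rbl1, hold E2F factors in a repressive state until cyclin-dependent kinases phosphorylate them. E2F6 lacks the part that pocket proteins bind and works in a polycomb complex. In macrophages grown with colony-stimulating factor, LPS is known to stop the cell cycle.

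In GRCm39 with the GENCODE vM39 annotation, the activator genes are E2f1 on chromosome 2 (154401326 to 154411812), E2f2 on chromosome 4 (135899585 to 135923368) and E2f3 on chromosome 13 (30090558 to 30170046). The repressor genes are E2f4 on chromosome 8 (106024243 to 106032003), E2f5 on chromosome 3 (14643676 to 14672404) and E2f6 on chromosome 12 (16860874 to 16890766). The atypical genes are E2f7 on chromosome 10 (110581300 to 110623245) and E2f8 on chromosome 7 (48516176 to 48531452), and the pocket protein genes are Rb1 on chromosome 14 (73421113 to 73563507) and Rbl1 on chromosome 2 (156987813 to 157046475). Their spans run from 7.76 kb for E2f4 to 142 kb for Rb1.

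Several of these genes carry E2F sites in their own promoters, and those sequences are shown because the genes that carry them moved in opposite directions after LPS. RefSeq promoter windows, which run from 250 bases before to 50 bases after a transcription start, were available for 7 of the 10 members, with E2f2 and E2f3 each represented by a pair of starts. The windows were searched on both strands for the E2F site, spelled TTTCCCGC, TTTCGCGC, TTTGCCGC or TTTGGCGC. A site was found in the windows of 4 members, E2f2, E2f3, E2f7 and Rbl1, whereas 2.26% of 32851 mouse promoter windows and 2.85% of 21263 windows of protein-coding genes held one. The site is in capitals in each stretch below, which is written 5′ to 3′ on the strand of the gene. The stretch of E2f3 lies at chr13:30170047-30170097 (minus strand) in GRCm39 and ends at the base before the start. That of E2f7 lies at chr10:110581062-110581299 (plus strand) and also ends there. The stretch of Rbl1 lies at chr2:157046455-157046512 (minus strand), and the RefSeq start behind it is 21 bases inside the GENCODE gene. The short stretch of E2f2 lies at chr4:135899613-135899634 (plus strand), with its site 39 bases after the first base of exon 1.
E2f3: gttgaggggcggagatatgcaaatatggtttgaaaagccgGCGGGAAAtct
E2f7: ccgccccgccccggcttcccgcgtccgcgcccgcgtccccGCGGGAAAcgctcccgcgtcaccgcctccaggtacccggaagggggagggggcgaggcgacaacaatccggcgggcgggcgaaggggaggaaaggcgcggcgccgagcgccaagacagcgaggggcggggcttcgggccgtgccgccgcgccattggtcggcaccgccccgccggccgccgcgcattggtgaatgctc
Rbl1: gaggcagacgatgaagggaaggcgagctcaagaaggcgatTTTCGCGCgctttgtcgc
E2f2: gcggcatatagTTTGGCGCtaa
The sites of E2f3 and E2f7 read TTTCCCGC on the opposite strand, those of Rbl1 and E2f2 read TTTCGCGC and TTTGGCGC on the strand of the gene. E2f1, E2f6 and E2f8 had no such site in their windows, of which that of E2f1 is placed 466 bases inside the GENCODE gene. The cell cycle homology element TTTGAA, a motif of late cell cycle genes found in 17.9% of all windows, was present in the windows of E2f3, E2f8 and the second start of E2f2. A match in these letters is not evidence of binding.

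The gene counts of a sample summed to 6869667 read pairs in the shallowest and 14708099 in the deepest library. All 10 macrophage markers were detected in every group, with summed levels per sample from 16086 to 33350 CPM (counts scaled to library size), higher in the 4 groups given LPS for 24 h than in the unstimulated and LPS-stimulated groups. The lists of neutrophil, B cell, T cell, erythroid, fibroblast and dendritic cell markers summed to at most 5.13 CPM, and Ly6g, Mpo, Cd3e, Cd3d, Cd3g, Cd8a, Pax5, Hba-a2 and Hbb-bs had no count in any sample. Values are given in the order of replicates 1, 2 and 3 as normalized counts, which are counts scaled to a common library size. Genes were tested by the edgeR quasi-likelihood F test, with p values adjusted over 11305 genes by the Benjamini-Hochberg method, and were called at an adjusted p under 0.05. DEG limits of the study were a |log2FC| over 2 with that limit in the LPS comparisons and an adjusted p under 0.25 in the carboplatin comparisons. In these bulk samples, fewer cycling cells and less RNA per cell cannot be told apart.

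**Figure D1:**
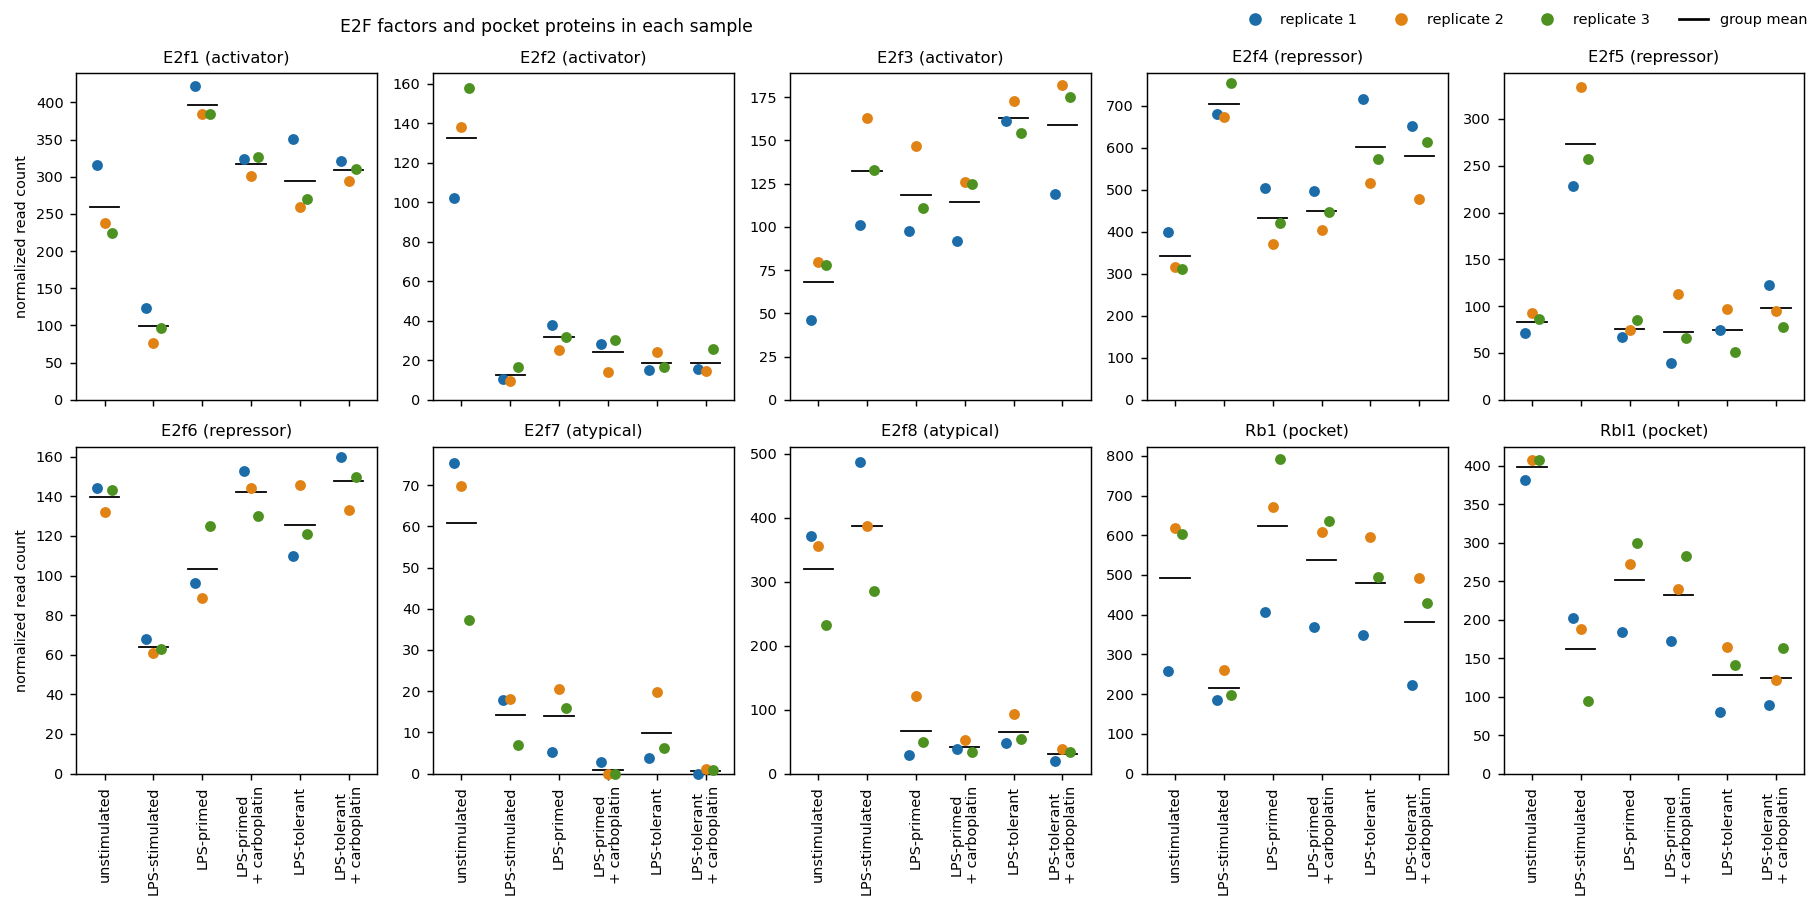
Normalized read counts of the 10 members in each of the 18 samples, with 1 panel per gene, groups on the x axis, replicates in colour and black lines at the group means (n = 3). E2f1 was lowest after 3 h of LPS and E2f8 was lower in all groups given LPS for 24 h, whereas E2f4 and E2f5 were highest after 3 h of LPS.

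After 3 h of LPS the members moved in both directions. Of the 10 members, 3 rose (E2f3, E2f4 and E2f5) and 6 fell (E2f1, E2f2, E2f6, E2f7, Rb1 and Rbl1), where 24.3% of all tested genes were called higher and 26.9% lower. E2f8 was the member that was not called. After 24 h of LPS, 2 members rose (E2f1 and E2f3, background 12.1%) and 3 fell (E2f2, E2f7 and E2f8, background 13.1%). The members that fell by the DEG limits were E2f2 and E2f7 after 3 h, where 5.54% of genes passed these limits downward, and E2f2, E2f7 and E2f8 after 24 h, where 4.07% did. Both comparisons use the same unstimulated samples.

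The activators did not move together. E2f1, the activator with the highest mean level per kb of exon in every group (in LPS-stimulated BMDMs within the spread of E2f3), had 316, 238 and 224 normalized counts in unstimulated BMDMs, 124, 76.1 and 96.6 after 3 h and 422, 385 and 384 after 24 h. The groups did not overlap, with the 3 h samples lowest and the 24 h samples highest. E2f1 thus fell at 3 h by 1.40 on the log2 scale (SE 0.19, adjusted p = 1.2e-05) and rose at 24 h by 0.61 (SE 0.18, adjusted p = 0.0187). The rise was no longer called without unstimulated replicate 2 (adjusted p = 0.0657), unstimulated replicate 3 (0.0726) or LPS-primed replicate 1 (0.0616), nor with library size alone as the scaling (log2FC 0.38, adjusted p = 0.115). With the replicate number as a block and all samples it was 0.62 (SE 0.13, adjusted p = 0.00114).

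E2f2, an activator with a cell cycle dependent level, had 102, 138 and 158 normalized counts in unstimulated BMDMs, 10.7, 9.69 and 16.8 after 3 h and 38.1, 25.1 and 31.9 after 24 h. It fell in both comparisons without overlap, by 3.42 on the log2 scale (SE 0.37, adjusted p = 9.6e-07) and by 2.06 (SE 0.34, adjusted p = 2.1e-04). E2f3, the remaining activator, had 45.9, 79.5 and 78.2 normalized counts before LPS, 101, 163 and 133 after 3 h and 97.4, 147 and 111 after 24 h. Every LPS sample was above every unstimulated sample, with log2FC of 0.97 (SE 0.26, adjusted p = 0.00461) at 3 h and 0.80 (SE 0.26, adjusted p = 0.0294) at 24 h. In fits without the replicate number as a block, the call of E2f3 at 24 h depended on single libraries. It was lost without unstimulated replicate 1 (adjusted p = 0.117), LPS-primed replicate 2 (0.133) or LPS-primed replicate 3 (0.0518). With that block and all samples the log2FC was 0.81 (SE 0.18, adjusted p = 0.00141). All 3 pairs of the same replicate number were higher after 24 h. With library size alone neither rise was called (adjusted p = 0.051 at 3 h and 0.118 at 24 h). E2f2 and E2f3, which both carry an E2F site near a start, differed in direction.

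Among the repressors, E2f4 and E2f5 rose at 3 h. E2f4, which carries most pocket protein binding in resting cells, had 399, 316 and 311 normalized counts in unstimulated BMDMs, 680, 674 and 755 after 3 h and 503, 371 and 421 after 24 h. The 3 h samples stood above all others of this set (log2FC 1.04, SE 0.17, adjusted p = 8.0e-05), and the 24 h samples overlapped with the unstimulated ones. At 24 h the log2FC of E2f4 was 0.34 (SE 0.17, adjusted p = 0.166), or 0.33 with the replicate number as a block (adjusted p = 0.0303). E2f5, a close relative of E2f4, had 71.7, 92.6 and 86.3 normalized counts before LPS, 228, 334 and 257 after 3 h and 66.7, 74.1 and 85.3 after 24 h. It rose at 3 h by 1.71 on the log2 scale (SE 0.31, adjusted p = 2.3e-04) and overlapped with the unstimulated samples at 24 h (log2FC -0.15, 95% confidence interval from -0.82 to 0.52). E2f5 overlaps the gene Rbis on the opposite strand, and the strand option of the counting was not given in the sources used here.

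E2f6, the repressor outside pocket protein control, went the other way. It had 144, 132 and 143 normalized counts in unstimulated BMDMs, 68, 60.9 and 63.1 after 3 h and 96.3, 88.9 and 125 after 24 h. The 3 groups did not overlap, and the 3 h samples were the lowest (log2FC -1.13, SE 0.18, adjusted p = 6.9e-05). At 24 h the log2FC of -0.43 (SE 0.18) had an adjusted p of 0.0867, which became 0.0416 without LPS-primed replicate 3 and 0.00976 with library size alone. Of 12 other subunits of the polycomb complex that holds E2F6, 5 rose and 1 fell at 3 h, against 24.3% and 26.9% of all tested genes. With the replicate block 6 rose and 2 fell, where 3332 and 3816 of 11305 tested genes did. The subunits that rose included Rybp, a RING1-binding subunit, with a log2FC of 2.35 (SE 0.24, adjusted p = 5.7e-07). Others were Hdac2 at 0.80 (adjusted p = 8.1e-04) and Hdac1 at 0.54 (adjusted p = 0.00148). Falling was the heterochromatin protein gene Cbx3 at -0.84 (adjusted p = 5.3e-04). At 24 h only Hdac1 rose (log2FC 0.51, adjusted p = 0.00455) and only Cbx3 fell (log2FC -0.63, adjusted p = 0.0101) in this list.

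**Figure D2:**
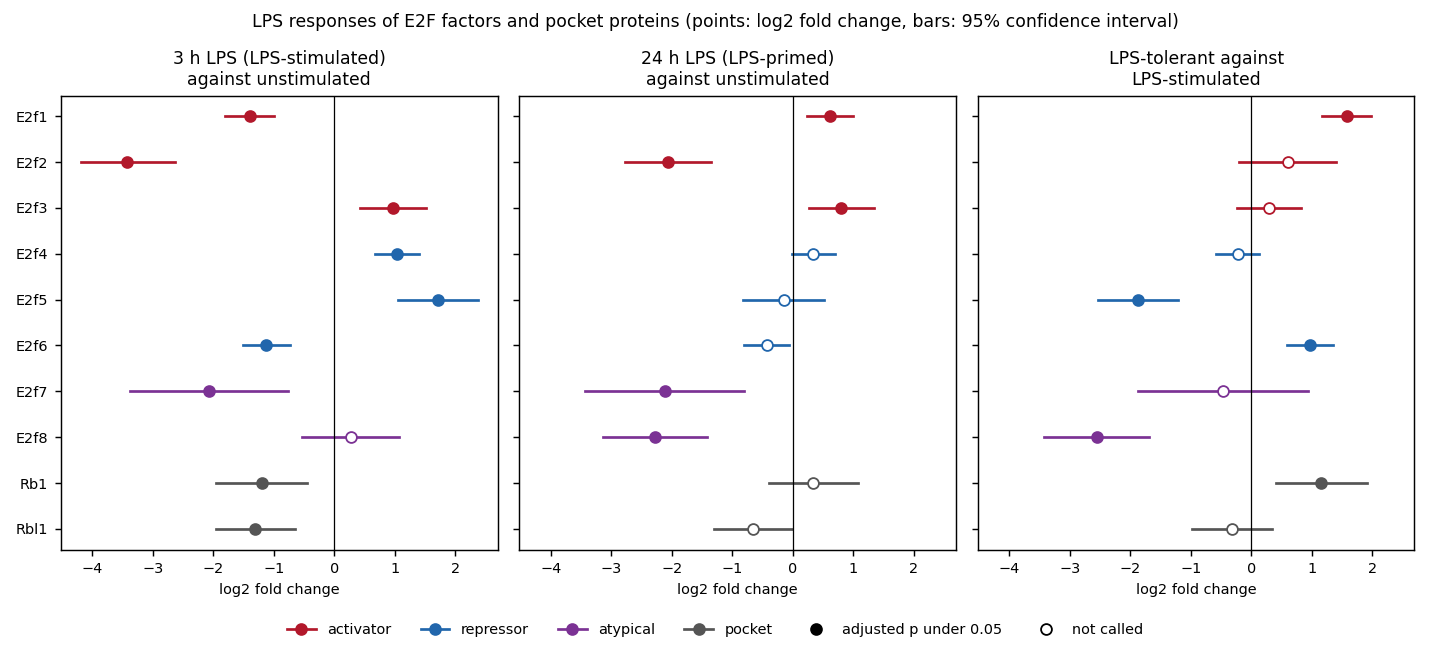
Log2 fold changes of the 10 members (points) with 95% confidence intervals (bars) from the edgeR fit, coloured by class, with filled points at an adjusted p under 0.05. E2f1, E2f6 and Rb1 were below 0 at 3 h and above 0 in the comparison of tolerant with LPS-stimulated BMDMs, and E2f8 was near 0 at 3 h and at -2.28 at 24 h.

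Of the atypical pair, which act late in the cell cycle to switch E2F targets off, E2f7 was lower at 3 h and at 24 h and E2f8 at 24 h. The difference between the responses of both genes was not tested. E2f7 had 75.5, 69.7 and 37.3 normalized counts in unstimulated BMDMs, 17.9, 18 and 6.9 after 3 h and 5.29, 20.5 and 15.9 after 24 h. Every LPS sample lay below every unstimulated sample, with log2FC of -2.08 (SE 0.62, adjusted p = 0.00987) and -2.12 (SE 0.62, adjusted p = 0.0182). These are small counts, 5 to 26 reads per sample after LPS, and the call at 24 h was lost without unstimulated replicate 1 (adjusted p = 0.0587), unstimulated replicate 2 (0.0609) or LPS-primed replicate 1 (0.0796), and that at 3 h without LPS-stimulated replicate 3 (0.0504). With the replicate block and all samples the adjusted p was 0.00404 at 24 h and 0.00173 at 3 h. E2f8 had 372, 356 and 232 normalized counts in unstimulated BMDMs, 487, 387 and 285 after 3 h and 28.6, 121 and 49.7 after 24 h. The 3 h samples overlapped with the unstimulated ones (log2FC 0.27, 95% confidence interval from -0.53 to 1.07), and the 24 h samples were below all of them (log2FC -2.28, SE 0.41, adjusted p = 4.9e-04). Across the 18 samples the levels of E2f7 and E2f8 had a Pearson r of 0.80, the highest of all pairs of members, as a description over samples that share groups and library depth.

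Both pocket proteins measured here fell at 3 h. Rbl1, which encodes p107, had 381, 408 and 407 normalized counts in unstimulated BMDMs, 202, 188 and 94.6 after 3 h and 184, 272 and 300 after 24 h. The LPS samples all lay below the unstimulated ones (log2FC -1.31, SE 0.31, adjusted p = 0.00205 at 3 h). At 24 h the log2FC of Rbl1 was -0.66 (SE 0.30, adjusted p = 0.126), or -0.68 with the replicate block (adjusted p = 0.0414), and library size alone gave -0.90 (adjusted p = 0.0401). Rb1, which encodes pRB, had 257, 619 and 604 normalized counts before LPS, 186, 260 and 197 after 3 h and 407, 672 and 792 after 24 h. Replicate 1 was the lowest Rb1 value in each of the 6 groups, and the 3 h samples overlapped with unstimulated replicate 1. Rb1 fell at 3 h by 1.20 on the log2 scale (SE 0.36, adjusted p = 0.00987, 0.0501 without unstimulated replicate 2). With the replicate block and all samples its log2FC at 3 h was -1.12 (SE 0.17, adjusted p = 1.6e-05), and all 3 pairs were lower. At 24 h Rb1 had a log2FC of 0.34 (95% confidence interval from -0.40 to 1.07). Rb1 spans 142 kb and holds Lpar6 in the opposite direction, and reads of the overlap cannot be assigned without the strand option.

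Set on a scale per length, the classes took different shares of the summed E2F level. The length was that of all annotated exons, from 3462 bases for E2f1 to 11997 for E2f6, whichever transcripts were expressed. Shares and the order of genes depend on it. Among activators, E2f1 had 12.3 CPM per kb in LPS-primed BMDMs, E2f3 2.34 and E2f2 0.68. After 3 h these were 3.07, 2.62 and 0.266. The sum of E2f1 to E2f8, in CPM per kb of exon, was 29 ± 2.71 in unstimulated, 34.6 ± 1.29 in LPS-stimulated and 27.8 ± 0.656 in LPS-primed BMDMs (mean ± SD, n = 3). Activators made up 40.9, 40.9 and 45.4% of it in unstimulated samples, 17.4, 16.3 and 18.1% after 3 h and 55.7, 55.6 and 54.4% after 24 h. Repressors made up 32.8 to 35.8%, 55.3 to 65.1% and 35.1 to 42.2% in the same order. The atypical pair made up 18.8 to 26.4% in unstimulated samples and 16.8 to 27.4% after 3 h, but 2.16 to 9.3% after 24 h. The activator shares of the 3 groups did not overlap, and the atypical share of LPS-primed samples lay below both other groups. The 3 h group was thus the one in which repressors outweighed activators most, and 24 h of LPS the one in which activators held the largest share of all 6 groups.

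**Figure D3:**
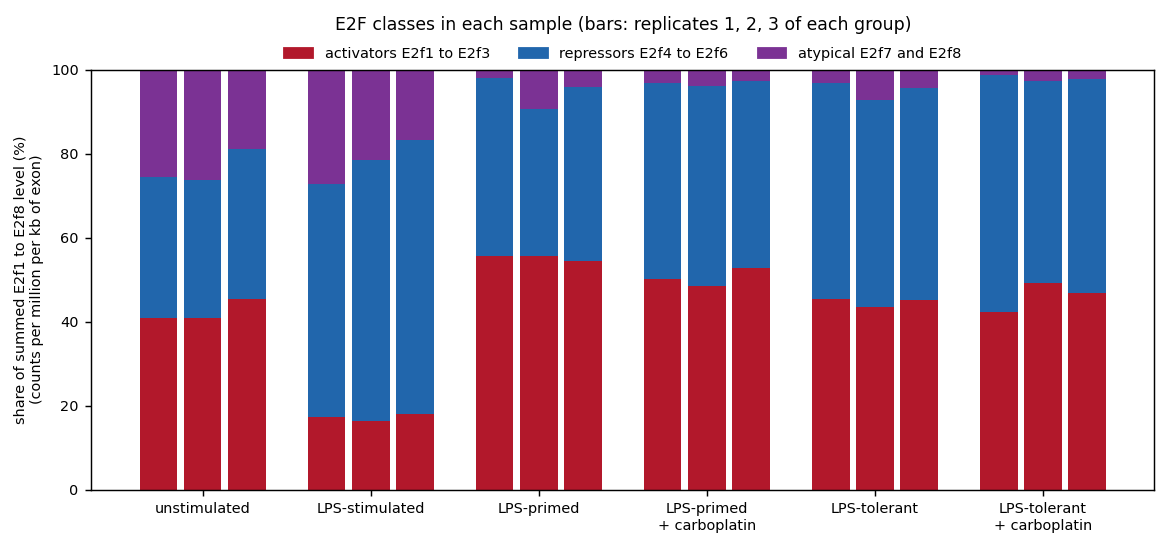
Share of the summed E2f1 to E2f8 level, in CPM per kb of exon, held by activators, repressors and the atypical pair in each sample (3 bars per group, replicates 1 to 3). Activators took 16.3 to 18.1% in LPS-stimulated samples and 42.3 to 55.7% in the samples of the 4 groups given LPS for 24 h, in which the atypical pair took 1.27 to 9.3%.

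Ordered by level per kb of exon in unstimulated BMDMs, E2f1 stood highest at 8.05 ± 1.55 CPM per kb (SD, n = 3), followed by E2f4 at 6.36 ± 0.914, E2f8 at 6.16 ± 1.48, Rbl1 at 5.83 ± 0.222 and Rb1 at 4.39 ± 1.82. The replicates of neighbours in this order overlapped, except that all Rb1 values lay below all Rbl1 values. Below them came E2f2 at 2.85 ± 0.607, E2f5 at 2.25 ± 0.289, E2f3 at 1.34 ± 0.377, E2f6 at 1.25 ± 0.0602 and E2f7 at 0.725 ± 0.246, of which E2f2 and E2f5, and E2f3 and E2f6, did not differ beyond their spread. After 3 h of LPS the order was led by E2f4 at 13.1 ± 0.841, with E2f8 at 7.44 ± 1.95 and E2f5 at 7.35 ± 1.47 next and inseparable. After 24 h E2f1 led again at 12.3 ± 0.681, ahead of E2f4 at 8.03 ± 1.23.

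The 24 h and 3 h effects were compared directly, as LPS-primed against LPS-stimulated BMDMs, a comparison added after the data were seen. Of the members, 4 were higher at 24 h (E2f1, E2f2, E2f6 and Rb1, background 22%) and 3 were lower (E2f4, E2f5 and E2f8, background 22.6%). The largest differences were those of E2f8 (log2FC -2.55, SE 0.41, adjusted p = 9.6e-05) and E2f1 (log2FC 2.01, SE 0.19, adjusted p = 4.0e-07). E2f3 (log2FC -0.17, 95% confidence interval from -0.70 to 0.36), E2f7 (-0.04, from -1.42 to 1.33) and Rbl1 (0.65, adjusted p = 0.0987) were not called. Leaving out any 1 of the 6 samples left 7 members called each time.

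Levels in tolerant BMDMs were compared with those in LPS-stimulated BMDMs, and 5 members differed. The level before the last dose is not subtracted, so the comparison does not show how the responses to that dose differ. It uses the same LPS-stimulated samples as the comparisons above. Against LPS-stimulated BMDMs, which received the same 10 ng/ml for 3 h without priming, E2f1, E2f6 and Rb1 were higher (3 of 10, background 16.2%) and E2f5 and E2f8 lower (2 of 10, background 18.3%), E2f8 also by the DEG limits (background 5.07%). E2f1 had 351, 260 and 270 normalized counts in tolerant samples against 124, 76.1 and 96.6 (log2FC 1.58, SE 0.19, adjusted p = 7.7e-06). E2f5 had 74.7, 96.7 and 51.5 against 228, 334 and 257 (log2FC -1.87, SE 0.32, adjusted p = 2.0e-04). For both genes the groups did not overlap.

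E2f8 had 48.1, 92.4 and 54.6 normalized counts in tolerant samples against 487, 387 and 285 in LPS-stimulated ones (log2FC -2.55, SE 0.41, adjusted p = 1.3e-04). E2f6 had 110, 146 and 121 against 68, 60.9 and 63.1 (log2FC 0.98, SE 0.18, adjusted p = 4.8e-04), again without overlap. Rb1 had 348, 596 and 496 against 186, 260 and 197 (log2FC 1.16, SE 0.36, adjusted p = 0.0178). Without the block, its call was lost without LPS-tolerant replicate 2 (adjusted p = 0.0714), LPS-stimulated replicate 1 (0.0559) or LPS-stimulated replicate 3 (0.0606). With the replicate block and all samples the log2FC of Rb1 was 1.14 (SE 0.17, adjusted p = 2.5e-05), and all 3 pairs were higher. E2f4, which rose at 3 h like E2f5, had 717, 517 and 574 normalized counts in tolerant samples, which overlapped with the 680, 674 and 755 of LPS-stimulated samples (log2FC -0.22, 95% confidence interval from -0.58 to 0.13).

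LPS-primed BMDMs lack the second dose, the fresh medium and the last 3 h, and the effects of these cannot be told apart. Against LPS-primed BMDMs no member was called by edgeR (0 of 10, background 6.31%), and DESeq2 called 1, Rbl1 (adjusted p = 0.0318). At an unadjusted p under 0.05 there were 3 of 10 members, where 2385 of 11305 tested genes were. They were Rbl1, E2f4 (log2FC 0.48, SE 0.17, adjusted p = 0.104) and E2f1 (log2FC -0.44, SE 0.18, adjusted p = 0.172). With the replicate number as a block 3 were called, E2f4 higher (log2FC 0.48, adjusted p = 0.00817) and E2f1 (log2FC -0.45, adjusted p = 0.0274) and Rbl1 (log2FC -0.97, adjusted p = 0.0176) lower. With that block 2034 of 11305 tested genes were called in either direction. Rbl1 had 79.8, 164 and 141 normalized counts in tolerant samples against 184, 272 and 300 in primed ones, without overlap (log2FC -0.97, SE 0.31, adjusted p = 0.0764). E2f8, with a log2FC of -0.01 (95% confidence interval from -0.89 to 0.87), and E2f5, with -0.02 (from -0.69 to 0.66), were centred on no difference. The activator share was 44.7 ± 0.987% in tolerant and 55.2 ± 0.723% in primed samples, and the repressor share 50.4 ± 1.21% and 39.6 ± 3.89% (mean ± SD, n = 3), without overlap in either.

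Carboplatin was compared within each LPS state. By edgeR no member was called at an adjusted p of 0.05 in LPS-primed BMDMs (0 of 10, background 0.372%) or in LPS-tolerant BMDMs (0 of 10, background 0.425%). At an unadjusted p under 0.05 there were 2 in each, E2f6 and E2f7 in the first and E2f7 and E2f8 in the second. Of 11305 tested genes, 777 and 761 were under that limit. DESeq2 called E2f7 in the primed state (adjusted p = 0.0449). E2f7 was the member that passed the wider DEG limits of the carboplatin comparisons in both states by edgeR, downward, where 0.257% and 0.336% of all tested genes did. The study, which used DESeq2, listed E2f7 as lower with carboplatin in LPS-primed macrophages and did not list it in LPS-tolerant ones. The raw counts of E2f7 were 5, 18 and 17 in LPS-primed samples and 2, 0 and 0 with carboplatin. In LPS-tolerant samples they were 3, 23 and 6, and with carboplatin 0, 1 and 1.

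All 6 carboplatin samples were at or under a floor of 3 counts per library for E2f7. Against that floor, its mean was at least 4.22-fold lower in the primed and 2.95-fold lower in the tolerant state. These bounds leave out the spread between samples. The log2FC was -4.03 in the primed state (95% confidence interval from -6.15 to -1.91, adjusted p = 0.131, or 0.0319 with the replicate block). In the tolerant state it was -3.62 (from -5.79 to -1.44, adjusted p = 0.196, or 0.0835 with the block). LPS-tolerant replicate 1, with 3 counts, was itself at this floor. The adjusted p in the primed state stayed under 0.25 without LPS-primed replicate 1 (0.0735) or LPS-primed with carboplatin replicate 1 (0.13), and was 0.29 to 0.501 without any 1 of the other samples. In the tolerant state it was 0.128 without LPS-tolerant replicate 1 and 0.254 to 0.929 without any 1 of the others. The call by DEG limits is thus a call on few reads. The lncRNA 1700020G17Rik overlaps E2f7 on the opposite strand.

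**Figure D4:**
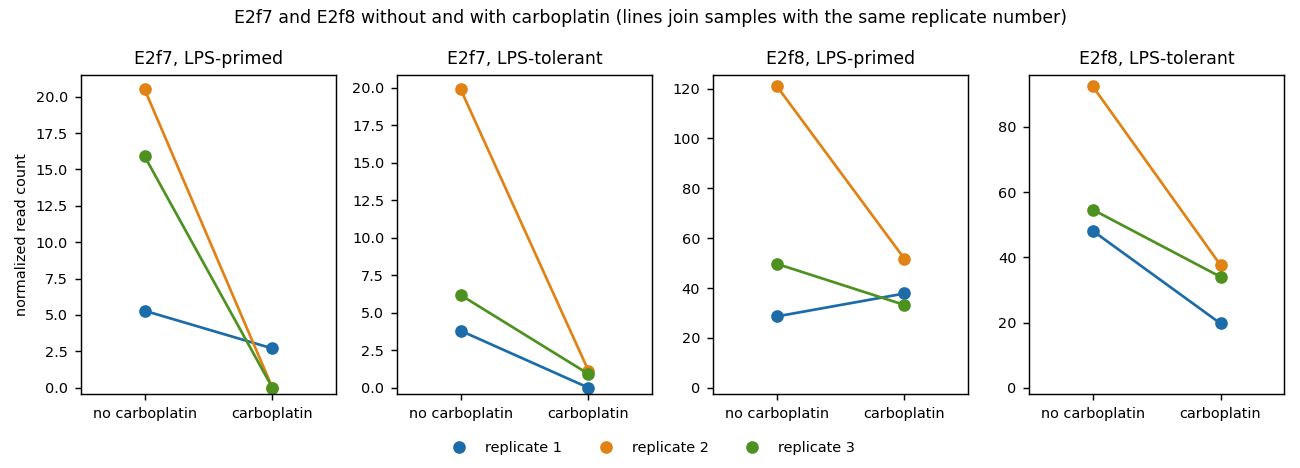
Normalized read counts of E2f7 and E2f8 without and with 25 µM carboplatin in LPS-primed and LPS-tolerant BMDMs, with lines between samples of the same replicate number. E2f7 was at 2.7 or less in all 6 carboplatin samples, and E2f8 was lower with carboplatin in all 3 tolerant pairs and in 2 of 3 primed pairs.

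E2f8, the other atypical member, had 28.6, 121 and 49.7 normalized counts in primed samples and 37.8, 51.7 and 33.2 with carboplatin. These overlapped, and the log2FC of -0.68 (adjusted p = 0.862) turned to 0.06 without LPS-primed replicate 2. In tolerant samples E2f8 had 48.1, 92.4 and 54.6 and, with carboplatin, 19.7, 37.6 and 34, which did not overlap (log2FC -1.09, SE 0.44, adjusted p = 0.601, or 0.186 with the block). The atypical share of the E2F level was 5.23 ± 3.67% in primed, 3.2 ± 0.736% in primed with carboplatin, 4.91 ± 2.19% in tolerant and 2.11 ± 0.774% in tolerant with carboplatin (mean ± SD, n = 3).

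For the classical members, the intervals around the carboplatin effect were narrow for E2f4 (log2FC 0.05, from -0.30 to 0.41, in primed and -0.05, from -0.41 to 0.30, in tolerant BMDMs) and E2f1 (-0.32, from -0.71 to 0.06, and 0.08, from -0.31 to 0.46). E2f1 had 422, 385 and 384 normalized counts in primed samples and 324, 301 and 327 with carboplatin, without overlap (adjusted p = 0.821). E2f6 had 96.3, 88.9 and 125 normalized counts in primed samples and 153, 144 and 130 with carboplatin, without overlap (log2FC 0.46, SE 0.18, adjusted p = 0.535). Its interval, similar in width to that of E2f1, ran from 0.08 to 0.83 in primed BMDMs. In tolerant BMDMs the log2FC of E2f6 was 0.23 (from -0.15 to 0.60). Rb1, the longest member, had log2FC of -0.21 (from -0.95 to 0.52) and -0.33 (from -1.07 to 0.41). The effects of carboplatin in the tolerant and the primed state did not differ for any member by the test of the difference itself (edgeR, 0 of 10, background 0%, all adjusted p = 1, and none at an unadjusted p under 0.05), with intervals that for E2f7 ran from -3.57 to 4.40 on the log2 scale.

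The partners of these factors were followed in a list of 10 genes, the DP partners, the pocket protein gene Rbl2 and the subunits of the MuvB complex with Mybl2 and Foxm1. At 3 h of LPS 3 of 10 fell and none rose, a share of lower calls near that of all tested genes (26.9%). They were Tfdp2, a DP partner (log2FC -1.42, SE 0.38, adjusted p = 0.00493), Foxm1, a driver of late cell cycle genes (log2FC -1.36, SE 0.44, adjusted p = 0.0171), and Rbl2, which encodes p130 (log2FC -0.65, SE 0.25, adjusted p = 0.0392). Rb1, Rbl1 and Rbl2, the 3 genes of the pocket protein family, were thus all lower at 3 h. At 24 h 3 fell (background 13.1%), Foxm1 (log2FC -3.04, SE 0.48, adjusted p = 1.6e-04), the MuvB subunit Lin9 (log2FC -1.44, SE 0.40, adjusted p = 0.0122) and Tfdp2 (log2FC -1.34, SE 0.38, adjusted p = 0.0149), and the replicate block raised that count to 5. In tolerant against LPS-stimulated BMDMs Lin9 (log2FC -1.74), Foxm1 (-1.67) and Rbl2 (-0.79) were lower (3 of 10, background 18.3%). Rbl2 was also lower in tolerant than in primed BMDMs (log2FC -1.08, SE 0.26, adjusted p = 0.0177), beside the values of its relative Rbl1 given above.

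Upstream of the pocket proteins, 18 genes for G1 cyclins, their kinases and kinase inhibitors, Cdc25a, Skp2 and Myc were followed. At 3 h 6 of 18 rose and 6 fell, where 24.3% and 26.9% of all tested genes did, and with the replicate block 7 rose. Myc, a growth factor response gene, had a log2FC of 4.84 (SE 0.40, adjusted p = 5.0e-08), Cdk6, a partner of D cyclins, 3.72 (SE 0.32, adjusted p = 7.7e-08) and Ccnd2 3.82 (SE 0.61, adjusted p = 6.8e-05), and those that fell were led by the kinase inhibitor gene Cdkn2c (log2FC -1.54, adjusted p = 5.0e-04), Ccnd3 (-1.25, adjusted p = 6.9e-04) and Cdk2 (-0.78, adjusted p = 0.00362). At 24 h 4 fell (5 with the block, background 13.1%) and 1 rose (background 12.1%). These were Cdkn2c (log2FC -2.74, adjusted p = 7.5e-06), Cdkn1c (-4.97, adjusted p = 6.0e-04), Ccnd1 (-2.87, adjusted p = 0.00157) and Cdkn2a (-2.53, adjusted p = 0.0175), and, rising, Ccnd3 (0.85, adjusted p = 0.0185).

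In tolerant against LPS-stimulated BMDMs 10 of these upstream genes were lower (background 18.3%) and 1 higher (background 16.2%), Ccnd3 (log2FC 1.21, adjusted p = 0.00157), and with the block 3 were higher. The lower ones were led by Cdk6 (log2FC -1.75, adjusted p = 1.6e-04), Cdc25a, which activates cyclin-dependent kinases (-1.13, adjusted p = 4.9e-04), and Cdkn2d (-1.67, adjusted p = 5.0e-04). In tolerant against primed BMDMs 3 were higher, Myc (3.74, adjusted p = 4.5e-05), Ccnd1 (3.36, adjusted p = 0.00269) and Cdk6 (1.38, adjusted p = 0.0124), and 2 lower, Cdkn1b (-1.29, adjusted p = 0.0141) and Ccnd3 (-0.89, adjusted p = 0.0427), where 6.31% of all tested genes were called in either direction. With the block 3 were lower. No upstream gene was called with carboplatin, and with the block 1 was, Cdkn1a, which encodes p21, in the primed state (block adjusted p = 0.0394, without it 0.593).

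Downstream, 48 textbook target genes of E2F were all tested. The list is not confined to the entry into S phase, since it holds Cdk1. At 24 h of LPS 31 fell and none rose, with a median log2FC of -1.26 against -0.02 over all tested genes, and all 48 were below 0. At 3 h 30 fell and none rose, with a median of -1.11 against -0.09. With the replicate block 42 fell at 24 h and 38 at 3 h, and again none rose. Over all tested genes 13.1% were called lower at 24 h and 26.9% at 3 h without the block. With the block 2234 and 3816 of 11305 genes were called lower. The genes that led at 24 h were Cdk1, the mitotic kinase (log2FC -2.82, SE 0.35, adjusted p = 1.2e-05), Ezh2, a histone methyltransferase (-1.60, SE 0.25, adjusted p = 1.2e-04), and Melk (-2.26, SE 0.38, adjusted p = 2.8e-04). At 3 h they included the mismatch repair gene Msh6 (-1.96, SE 0.17, adjusted p = 1.0e-07) and the licensing factor gene Cdt1 (-2.90, SE 0.36, adjusted p = 4.6e-06). Cdk1 had 641 normalized counts at 3 h and 832 before LPS (log2FC -0.37, adjusted p = 0.343) and 118 at 24 h, so that, as for E2f8, the fall was called at 24 h and not at 3 h. Cdt1 had 53.4, 397 and 166 in the same order. An E2F site stood in the promoter windows of 17 of the 38 targets with a window (44.7%).

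In tolerant against LPS-stimulated BMDMs 4 targets were higher (background 16.2%) and 13 lower (background 18.3%), or 4 and 18 with the block. The higher ones were led by Cdt1 (log2FC 3.23, SE 0.36, adjusted p = 3.6e-06), the DNA methyltransferase gene Dnmt1 (1.39, SE 0.27, adjusted p = 6.1e-04) and Msh6 (0.74, SE 0.17, adjusted p = 0.00286), the lower ones by Cdk1 (-2.63, SE 0.35, adjusted p = 2.0e-05), Melk (-2.35, SE 0.39, adjusted p = 1.6e-04) and Ezh2 (-1.35, SE 0.25, adjusted p = 5.1e-04). In tolerant against primed BMDMs Cdt1 (1.60, adjusted p = 0.0083) and Pcna, the replication clamp (0.98, adjusted p = 0.0325), were higher, and 4 targets were lower, or 5 with the block (background 6.31% in either direction). With carboplatin no target was called in either state, and the medians were -0.60 in the primed state, with 43 of 48 below 0, and -0.39 in the tolerant state, with 37 of 48 below 0 (-0.34 with Dscc1, at the floor with carboplatin, set at its bound), against 0.01 over all tested genes in both. With the replicate block 1 target was called, Cdk1 in the tolerant state (log2FC -1.18, block adjusted p = 0.0259, without it 0.28).

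**Figure D5:**
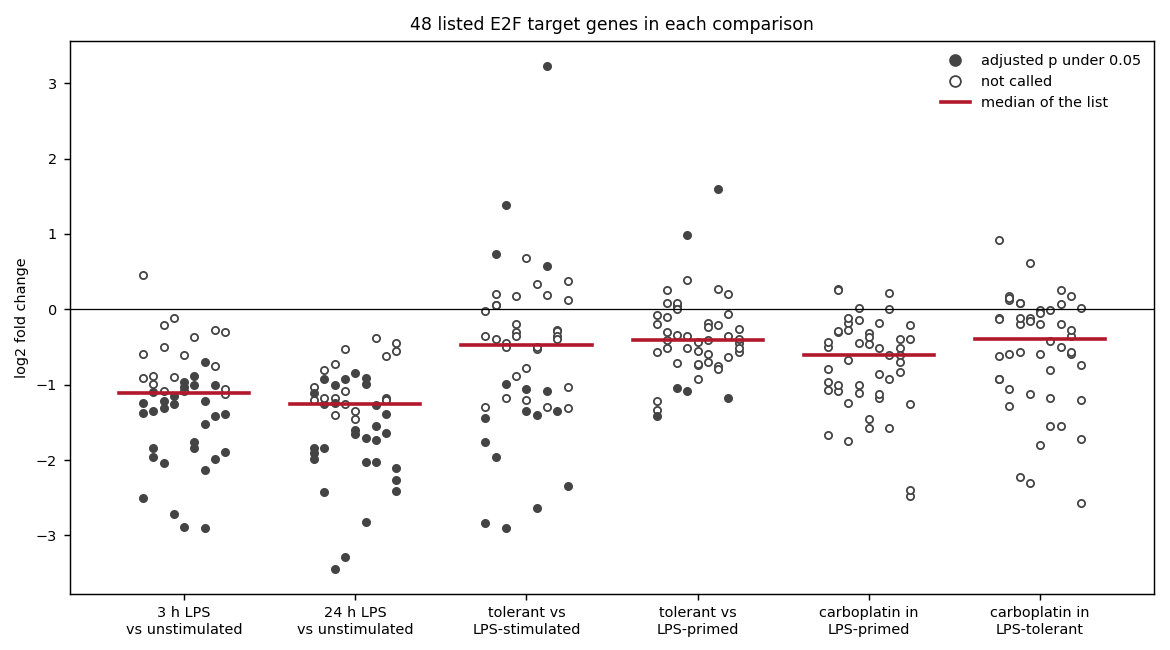
Log2 fold changes of the 48 listed E2F target genes (points, filled at an adjusted p under 0.05) and their median (red line) in 6 comparisons. The medians were -1.11 and -1.26 after 3 h and 24 h of LPS, and -0.60 and -0.39 with carboplatin, where no point is filled.

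Single members, E2f1, E2f4 and E2f8, were looked at, which do not stand for their classes. The genes whose levels followed theirs most closely over the 18 samples differed between these members. For E2f8 they were Cdk1, Mki67, Tacc3 (Pearson r = 0.97 each), Prc1 and Tpx2 (0.96 each), all known from mitosis or proliferating cells. For E2f1 they were 2610524H06Rik, Abcd4, Slc25a12 (0.97 each), Fam3a and Nisch (0.96 each), and for E2f4 Mtmr7, Plaur, Tes (0.95 each), Hmgxb3 and Bop1 (0.94 each). The points of these correlations share their groups and libraries, and no test was made of them.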

How the data were processed

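Read pairs were counted per gene in 18 samples, grouped by the sample labels. The authors aligned TruSeq stranded mRNA reads with HISAT2 to GRCm39 and deposited raw counts per gene made with HTSeq-count. Their versions, the annotation and the strand option were not given in the sources used here. Of all pairs, 41.5 to 46.9% per sample were on no single gene and were left out, as were the special HTSeq lines.

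Genes were tested with edgeR 4.0.16 in R 4.3.3 (TMM, quasi-likelihood F test, 18 samples, a mean for each group, filterByExpr with a minimum count of 10 and total of 15, prior count 0.125). SE is the absolute log2FC over the square root of F. The analysis script was tested on simulated data. DESeq2 1.42.0 and limma 3.58.1 were alternatives. Levels per kb used GENCODE vM39 exons. RefSeq promoters, tabulated from GRCm38.p6 starts, were each placed by a single match in GRCm39. The study calls the replicates biological, but the sources used here do not say whether they came from separate mice or cultures, so p values measure only the spread between these samples, which may be technical.

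Same-numbered samples deviated together from their group means, with correlations from 0.20 to 0.61 in all 18 pairs of the 6 planned comparisons, so the numbers in the labels were taken as pairs and a fit with the replicate block stands beside each member's call and each list count in the report that it changed. In the added comparison of LPS-primed with LPS-stimulated BMDMs the lowest was 0.07. Shares of called genes given in percent are those of fits without the block. The text names all members, up to 3 genes per direction, list and comparison with the smallest p among those called, and the 5 genes most like E2f1, E2f4 and E2f8. Cdkn2a, Cdk1 and Cdt1 as set beside members, Dscc1, and Cdkn1a and Cdk1 as called with the block were named after their values were seen. The members and lists were chosen with earlier results of these data known, so the lists are no independent evidence. Depth limits genes with few counts, and intervals and floors cover these samples only.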

Additional observations from a re-analysis of the deposited data

Results flagged for a closer look

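The effects of 24 h of LPS at 100 ng/ml and 3 h at 10 ng/ml, each against the same unstimulated BMDMs, differed by a direct test for 7 members (edgeR, adjusted over 11305 genes), as the log2 difference of LPS-primed minus LPS-stimulated. It was 2.01 for E2f1 (adjusted p = 4.0e-07), 1.36 for E2f2 (0.00693), -0.70 for E2f4 (0.00283), -1.86 for E2f5 (1.6e-04), 0.69 for E2f6 (0.00532), -2.55 for E2f8 (9.6e-05) and 1.54 for Rb1 (0.00228). E2f1 was on opposite sides of the unstimulated level in the 2 conditions, E2f8 was called in the longer one and not in the shorter, and E2f4, E2f5, E2f6 and Rb1 in the shorter one and not in the longer. E2f2 fell in both, more at 3 h. Dose and duration differ together between these groups and cannot be told apart. With only the samples of these groups in the fit, E2f6 had a log2 difference of 0.70 and an adjusted p of 0.0534.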

How the results depend on the processing

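Library size alone in place of TMM moved the median of all tested genes from -0.02 to -0.26 at 24 h of LPS, from -0.09 to -0.43 at 3 h, from -0.01 to -0.11 for tolerant against primed and from 0.03 to 0.13 for primed against LPS-stimulated BMDMs. At 24 h the members then divided into 0 higher and 5 lower in place of 2 and 3, and the share of higher calls over all genes was 26.4% in place of 48.1%. At 3 h that share was 28.5% in place of 47.5%, and for tolerant against primed 38.3% in place of 57.1%.

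Of 10 members, 5 were called at 24 h, 8 at an adjusted p under 0.25, 3 with a |log2FC| over 1 and 3 by the DEG limits. The share of all tested genes at an adjusted p under 0.25 alone is not given here. By the DEG limits 2 in place of 9 were called at 3 h, 1 in place of 5 for tolerant against LPS-stimulated and 2 in place of 7 for primed against LPS-stimulated BMDMs. For tolerant against primed BMDMs the count of 0 became 1 with the DESeq2 Wald test (Rbl1, adjusted p = 0.0318), 3 with the replicate block and 4 at an adjusted p under 0.25. For carboplatin in primed BMDMs 0 became 1, E2f7, with the DESeq2 Wald test (adjusted p = 0.0449), with the replicate block, at an adjusted p under 0.25 and by the DEG limits. For carboplatin in tolerant BMDMs it became 1, again E2f7, at an adjusted p under 0.25 and by the DEG limits. limma-voom gave E2f7 an adjusted p of 0.286 and 0.608, and with only the samples of the groups compared it was below the filter on low counts. Leaving out single samples gave 3 to 5 members at 24 h, 8 to 9 at 3 h, 4 to 5 for tolerant against LPS-stimulated, 7 for primed against LPS-stimulated and 0 elsewhere.

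Of 638 log2FC values of members under other settings, 623 kept their side of the threshold, 5 lost and 10 gained the call. Of 540 with a sample left out, 525 kept their side, 14 lost and 1 gained the call. The fits with a sample left out had no replicate block. None of the called values changed sign. Values that changed sign without a call count as kept, such as E2f8 with carboplatin in primed BMDMs, from -0.68 to 0.06 without LPS-primed replicate 2. The block changed the call of E2f4 and Rbl1 at 24 h, of E2f1, E2f4 and Rbl1 for tolerant against primed, and of E2f7 with carboplatin in primed BMDMs, and changed no other call of a member. Over all genes it raised the calls from 2847 to 4366 at 24 h, from 5790 to 7148 at 3 h and from 713 to 2034 for tolerant against primed. For tolerant against LPS-stimulated it raised them from 3900 to 5380, and with carboplatin from 42 to 200 and 48 to 200. In the polycomb list it raised them from 2 to 4 for tolerant against primed and from 3 to 6 for primed against LPS-stimulated. E2f7, with 0 to 26 counts per sample outside unstimulated BMDMs, is the member most limited by depth.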

Other observations

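Replicate 1 stood apart from replicates 2 and 3 for some members in every group, a description added after the data were seen. On the log2 scale, the mean over the 6 groups of replicate 1 minus the mean of the others was -0.79 for Rb1 (142 kb gene span), -0.44 for E2f3 (79.5 kb), -0.37 for Rbl1 (58.7 kb) and -0.13 for E2f7 (41.9 kb), and 0.25 for E2f4 (7.76 kb) and 0.27 for E2f1 (10.5 kb). Rb1 was lowest in replicate 1 in 6 of 6 groups, E2f3 and Rbl1 in 5 of 6, whereas E2f1 and E2f4 were highest in replicate 1 in 5 of 6. E2f8, with a short span of 15.3 kb, was at -0.30. Over 11022 tested genes with a GENCODE symbol, the same deviation had a Spearman correlation of -0.38 with gene span and -0.36 with exon length, across genes that share the same libraries and are not independent. Of all tested genes, 4.09% lay at or below the deviation of Rb1. The part of this deviation in the results on Rb1, E2f3 and Rbl1 was not tested beyond the fits with the replicate block.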
